A study of Mus musculus with 9 samples.

Results

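Transcripts of 8 genes listed as markers of stromal fibroblasts were followed through 9 libraries of mouse testis. Which cells of the tissue held these transcripts was not tested. The genes were Pdgfra, Tcf21, Dcn, Lum, Dpt, Mfap5, Pi16 and Fbln1, taken by name from the deposited table, which held all 8 among its 55401 genes. Collagens were not included. All mice carried a germ cell depletion made with busulfan, a DNA-alkylating agent, the controls among them. The control group had then been given PBS (BP, replicates 5, 6 and 7). The other two groups had been given exosomes, membrane vesicles shed by cells, either from wild-type blood (BE, replicates 6, 7 and 8) or from animals whose gut flora was out of balance (BdE, replicates 5, 6 and 7). The labels used here state neither strain, age, dose nor time after injection. They also leave unsaid whether libraries stand for separate animals, and p-values therefore measure only the spread between these libraries, which may be technical.

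Fibroblasts fill the space between the seminiferous tubules, around Leydig cells, vessels and macrophages, and they secrete the collagen-rich matrix of that space. In the mouse testis, interstitial cells with Tcf21 and Pdgfra include progenitors that can give rise to Leydig and peritubular myoid cells. Small leucine-rich proteoglycans such as decorin and lumican coat collagen fibrils and set their spacing, while microfibril proteins and fibulins help to build elastic fibres. Pi16 and Dpt mark fibroblasts with progenitor properties around vessels and in connective tissue of several mouse organs.

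The libraries held 57923652 to 70103125 counts, and a count of 0 allows up to 3 counts, or 0.0428 to 0.0518 CPM (counts scaled to a common library total). This floor covers counting error only. The library of BE replicate 6 (BE 6) stood apart from BE 7 and BE 8. Its share of mitochondrial counts was 7.19%, against 7.10% to 8.01% in BP, 14.5% in BE 7, 14.2% in BE 8 and 11.8% to 13.4% in BdE. The rank correlation of gene length with a gene's level relative to its 9-library mean was 0.23 in BE 6, 0.171 to 0.242 in BP, -0.192 in BE 7, -0.216 in BE 8 and -0.242 to -0.0894 in BdE. Results that rest on BE are therefore given with and without BE 6. Markers of testicular cell types were present, and Leydig cell markers reached a summed FPKM (fragments scaled to gene length and library total) of 8434 to 9403 in BP, 9208 in BE 6, 7403 to 7712 in BE 7 and BE 8 and 8866 to 10510 in BdE. Insl3 alone made up most of that sum (mean FPKM 7910), and other Leydig markers varied more, as Cyp11a1 (32.7 to 233) and Star (46.9 to 176) did over the 9 libraries. The protocol text names retinas, but all 6 photoreceptor markers lay under an FPKM of 1 in every library, and Crx was at 0 in all 9. Germ cell markers summed to an FPKM of 5.26 to 18.7, and 3 of the 6 lay under 1 in every library.

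On the FPKM scale, which divides by gene length, the 8 genes spanned a wide range of levels and held nearly the same order throughout. Dcn was the most abundant, with a mean FPKM of 50.7 over the 9 libraries, followed by Pdgfra (17.4), Tcf21 (12.7) and Fbln1 (4.14). Lum (0.994), Dpt (0.945), Mfap5 (0.728) and Pi16 (0.217) lay near or below an FPKM of 1. Each of the upper 4 genes exceeded the next in 9 of 9 libraries, as did Mfap5 over Pi16. Lum exceeded Dpt in 6 of 9 libraries and Dpt exceeded Mfap5 in 6 of 9, so these 3 neighbours in the order could not be separated. Dcn, Pdgfra and Tcf21 together made up 89.6% to 93.8% of the summed FPKM of the 8 genes, and Dcn alone 53.0% to 60.4%. The sum lay between 109 and 122 in BP, at 118 in BE 6, at 55.6 and 57.5 in the other BE libraries and between 63.7 and 86.5 in BdE.

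**Figure D1:**
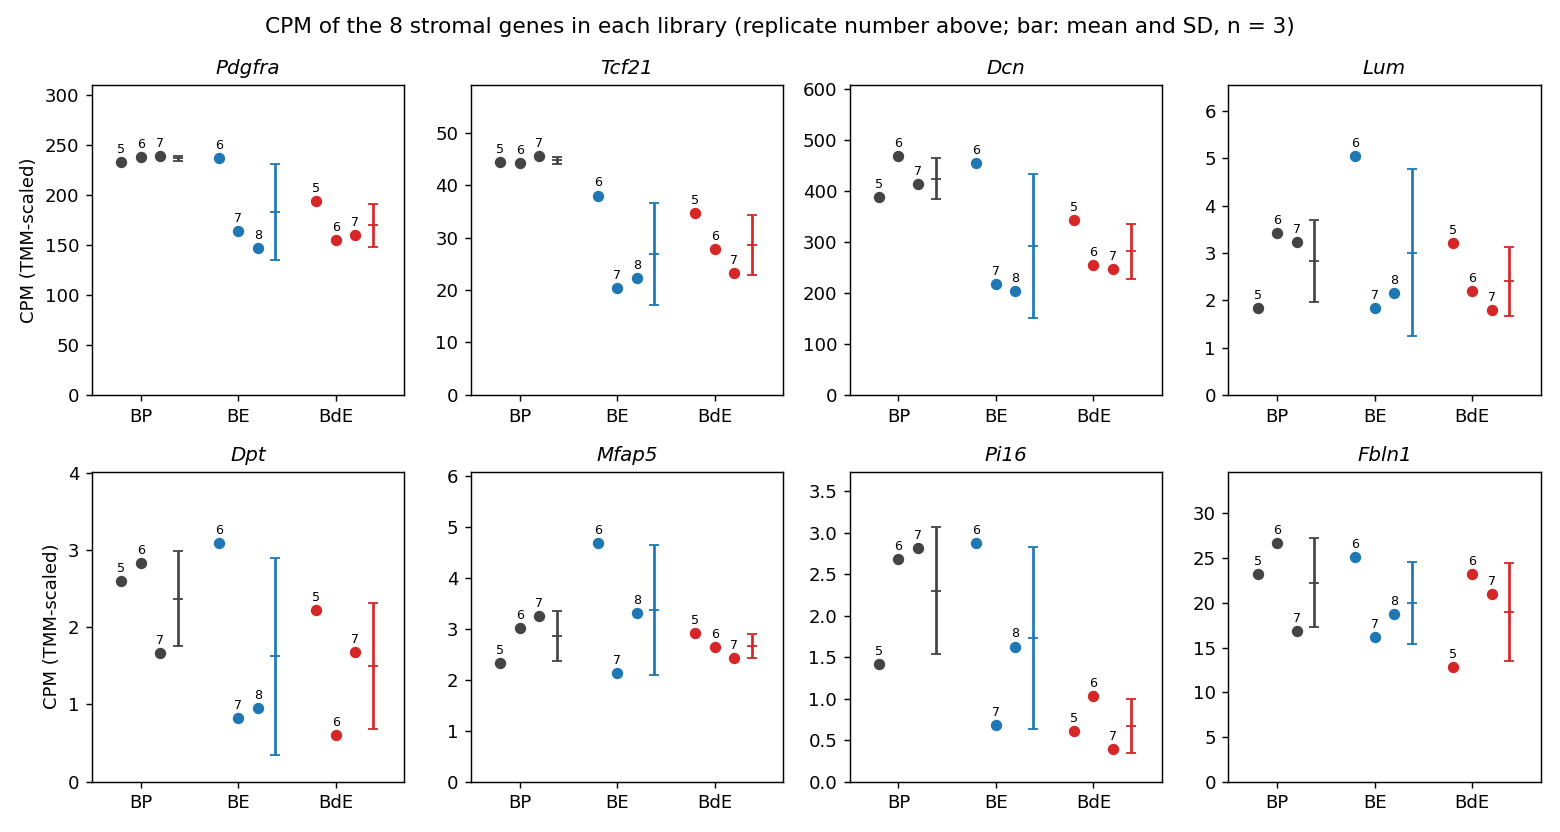
CPM (vertical axis, scaled by the trimmed mean of M-values, TMM) of the 8 genes in each library of BP, BE and BdE, with the replicate number above each point and a bar for the mean and SD of 3 libraries. In Pdgfra, Tcf21 and Dcn every BdE library lies below every BP library, and BE 6 lies far above BE 7 and BE 8.

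Pdgfra encodes a receptor tyrosine kinase for platelet-derived growth factors that mouse Leydig cell precursors depend on (ENSMUSG00000029231, GRCm38 chr5:75152292-75198215, plus strand). Its level was 233, 238 and 238 CPM in BP 5, 6 and 7, 237, 164 and 146 CPM in BE 6, 7 and 8, and 194, 155 and 159.7 CPM in BdE 5, 6 and 7. The 3 BP libraries and BE 6 lay within a few CPM of one another, all 3 BdE libraries lay below them, and BE 7 lay among the BdE libraries. It averaged 236 ± 2.96 CPM over BP, 183 ± 48.0 over BE and 169.7 ± 21.4 over BdE (SD, n = 3), on 9615 to 17212 counts per library.

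Tcf21 encodes a basic helix-loop-helix transcription factor that is active in mesenchymal progenitors of the developing gonad (ENSMUSG00000045680, chr10:22817281-22820174, minus strand). It measured 44.5, 44.3 and 45.5 CPM in BP 5, 6 and 7, 38.0, 20.4 and 22.3 CPM in BE 6, 7 and 8, and 34.7, 27.8 and 23.3 CPM in BdE 5, 6 and 7. Here BE 6 too lay below all 3 BP libraries, so BP overlapped with neither of the exosome groups. The averages were 44.8 ± 0.643 CPM over BP, 26.9 ± 9.69 over BE and 28.6 ± 5.75 over BdE (SD, n = 3). In BP the spread of Pdgfra and Tcf21 was far smaller than in the other groups.

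The promoter sequences of these genes were read to set out the letters around each start. They come from RefSeq (GRCm38.p6, 250 bases before to 50 after the annotated start, 5′ to 3′ on the strand of the gene). The table matched 5 of the 8 genes with 6 promoters; Dcn, Lum and Mfap5 had none there. Shown are Pdgfra and Tcf21, which differed between BP and BdE in the fit given below, and the fibroblast markers Dpt and Pi16. Capitals mark CAGCTG, an E-box of the kind that basic helix-loop-helix factors bind and that reads the same on both strands, and TATAAA, the TATA box. The windows are chr5:75152001-75152300 (plus strand) for Pdgfra, chr10:22820094-22820393 (minus strand) for Tcf21, chr1:164796413-164796712 (plus strand) for Dpt and chr17:29318632-29318931 (plus strand) for Pi16.
Pdgfra: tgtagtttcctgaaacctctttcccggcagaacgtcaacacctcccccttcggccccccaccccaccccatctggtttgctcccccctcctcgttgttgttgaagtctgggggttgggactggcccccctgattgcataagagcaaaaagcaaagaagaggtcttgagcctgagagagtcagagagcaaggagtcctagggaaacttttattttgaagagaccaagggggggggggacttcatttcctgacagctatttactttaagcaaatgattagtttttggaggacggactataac
Tcf21: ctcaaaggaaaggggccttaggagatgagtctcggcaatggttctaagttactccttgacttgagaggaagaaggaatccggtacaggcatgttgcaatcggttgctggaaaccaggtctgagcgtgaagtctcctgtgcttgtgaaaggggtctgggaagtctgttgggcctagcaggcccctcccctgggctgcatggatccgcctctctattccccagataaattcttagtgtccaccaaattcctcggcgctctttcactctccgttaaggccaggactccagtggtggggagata
Dpt: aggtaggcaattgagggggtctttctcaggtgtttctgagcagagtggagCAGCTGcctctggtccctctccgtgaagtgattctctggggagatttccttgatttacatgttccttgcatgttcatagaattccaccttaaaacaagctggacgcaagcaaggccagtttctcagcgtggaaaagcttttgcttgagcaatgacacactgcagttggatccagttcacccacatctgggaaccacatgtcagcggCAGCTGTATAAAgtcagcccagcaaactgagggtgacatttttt
Pi16: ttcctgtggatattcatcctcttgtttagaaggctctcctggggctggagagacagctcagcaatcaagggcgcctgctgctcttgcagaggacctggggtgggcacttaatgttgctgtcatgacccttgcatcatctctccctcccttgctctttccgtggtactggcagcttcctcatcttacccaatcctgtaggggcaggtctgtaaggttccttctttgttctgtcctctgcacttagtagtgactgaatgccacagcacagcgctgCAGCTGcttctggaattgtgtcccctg
CAGCTG was found in 4 of the 6 member promoters, among them both overlapping windows of Fbln1, which share 1 site, and in 16.3% of all 32851 promoters of this length. Dpt held 2 of them and Pi16 held 1. The window of Pi16 lies inside the gene as the deposited table places it, downstream of its start there at position 29317680. TATAAA was found on either strand in 1 of the 6, that of Dpt, where it directly follows an E-box without overlap, and in 13.6% of all promoters. TGACTCA, an AP-1 motif, was in 0 of the 6 and in 5.2% of all, also searched on both strands. A match describes letters in this window and not a bound site.

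Decorin, the product of Dcn, is a small leucine-rich proteoglycan that binds collagen fibrils and TGF-beta (ENSMUSG00000019929, chr10:97479609-97518143, plus strand). Dcn measured 389, 468 and 415 CPM in BP 5, 6 and 7, 455, 217 and 204 CPM in BE 6, 7 and 8, and 344, 256 and 247 CPM in BdE 5, 6 and 7. BE 6 lay inside the BP range, and BE 7 and BE 8 lay below every other library. The averages were 424 ± 40.3 CPM over BP, 292 ± 142 over BE and 282 ± 53.6 over BdE (SD, n = 3).

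Lum encodes lumican, a related proteoglycan of collagen fibrils, and starts 46985 bases beyond the end of Dcn on the same strand (ENSMUSG00000036446, chr10:97565128-97572703). It had 1.85, 3.43 and 3.24 CPM in BP 5, 6 and 7, 5.04, 1.83 and 2.15 CPM in BE 6, 7 and 8, and 3.22, 2.19 and 1.80 CPM in BdE 5, 6 and 7, on 112 to 356 counts. The 3 groups overlapped, and BE 6 was the highest of the 9 libraries. Of the 13 other genes within 500 kb of Dcn and Lum, Epyc alone had at least 100 counts in every library. Epyc encodes epiphycan, another small leucine-rich proteoglycan. It had 19.4, 16.2 and 16.9 CPM in BP 5, 6 and 7, and 19.0, 21.8 and 25.55 CPM in BE 6, 7 and 8. In BdE 5, 6 and 7 it had 20.4, 20.8 and 27.4 CPM. BP and BE overlapped, on 1172 to 1765 counts over all libraries. The log2 fold change of Epyc from BP to BdE was 0.39 (SE 0.15, edgeR adjusted p = 0.115 in the 6 BP and BdE libraries). The fitted change of Epyc thus had the opposite sign to that of Dcn and did not pass.

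Dpt encodes dermatopontin, a matrix protein that binds decorin (ENSMUSG00000026574, chr1:164796644-164824266, plus strand). It had 2.60, 2.83 and 1.67 CPM in BP 5, 6 and 7, 3.09, 0.82 and 0.959 CPM in BE 6, 7 and 8, and 2.22, 0.61 and 1.68 CPM in BdE 5, 6 and 7, on 41 to 218 counts. BE 6 was again the highest library, and the groups overlapped. Fbln1 encodes fibulin-1, a glycoprotein of elastic fibres and basement membranes (ENSMUSG00000006369, chr15:85205949-85286535, plus strand). It had 23.3, 26.7 and 16.9 CPM in BP 5, 6 and 7, 25.1, 16.2 and 18.7 CPM in BE 6, 7 and 8, and 12.8, 23.2 and 21.01 CPM in BdE 5, 6 and 7. The groups overlapped, and BdE 5, the highest BdE library for Dcn, was the lowest of all 9 here.

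Mfap5 encodes a microfibril-associated glycoprotein that binds fibrillin (ENSMUSG00000030116, chr6:122505845-122528766, plus strand). It had 2.32, 3.01 and 3.26 CPM in BP 5, 6 and 7, 4.69, 2.13 and 3.32 CPM in BE 6, 7 and 8, and 2.91, 2.65 and 2.44 CPM in BdE 5, 6 and 7. The BdE libraries lay within the range of BP. Pi16 encodes a secreted peptidase inhibitor that marks adventitial fibroblasts in the mouse (ENSMUSG00000024011, chr17:29317680-29330593, plus strand). It had 1.42, 2.68 and 2.81 CPM in BP 5, 6 and 7, 2.87, 0.686 and 1.63 CPM in BE 6, 7 and 8, and 0.608, 1.03 and 0.388 CPM in BdE 5, 6 and 7. All BdE libraries lay below all BP libraries, on 25 to 69 counts in BdE against 86 to 197 in BP. Antisense genes overlap Dpt (5 to 44 counts), Pi16 (0 to 16), Tcf21 (27 to 61) and Pdgfra (at most 89). No source used here says whether the counting used strand, so reads of an overlapping pair cannot be told apart, which weighs most for Dpt and Pi16.

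The first question was how the depleted testis differed after exosomes of donors with gut imbalance (BdE) and after PBS (BP). In the 6 libraries of these groups Pdgfra, Tcf21 and Dcn were lower in BdE, at 0.718, 0.639 and 0.665 times the BP level. The log2 fold changes were -0.48 for Pdgfra (SE 0.0944, edgeR quasi-likelihood adjusted p = 0.0204), -0.65 for Tcf21 (SE 0.149, edgeR adjusted p = 0.0305) and -0.59 for Dcn (SE 0.146, edgeR adjusted p = 0.037). Fewer fibroblasts, less RNA per fibroblast and a shift in the RNA of other cells cannot be told apart in whole tissue. Tests covered 14570 genes whose FPKM reached 1 in 3 or more libraries, and 6 of the 8 genes were among them. Thus 3 of 6 were lower past the threshold of an adjusted p under 0.05, where 11.9% of all tested genes were lower and 21.1% were called in either direction; DESeq2 called the same 3 and 30.7% of all. Lum (-0.24, SE 0.333, edgeR adjusted p = 0.637), Dpt (-0.66, SE 0.485, adjusted p = 0.366) and Fbln1 (-0.23, SE 0.268, adjusted p = 0.574) did not pass. The median log2 fold change of the 6 was -0.53, against 0.01 over all tested genes.

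Mfap5 reached an FPKM of 1 in 1 library and Pi16 in 0, so neither was among the tested genes. In the table without a filter on low values (34502 genes, of which 4.83% were called) the log2 fold change of Pi16 from BP to BdE was -1.79 (SE 0.454, edgeR adjusted p = 0.080), the largest in size of the 8. DESeq2 gave it an adjusted p of 0.00363, in a table of which it called 11.5%. Mfap5 was at -0.12 (SE 0.221, edgeR adjusted p = 0.848). With all 9 libraries in the unfiltered model, which called 0.0087% of genes between BdE and BP, the adjusted p of Pi16 was 0.36.

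These calls rested on the libraries that entered the fit. The fit of 6 libraries was set up with the place of BE 6 already known, a choice that its p-values do not take into account. In the model of all 9 libraries, which was the one planned as the main test of every pair, 0 of the 6 genes passed between BdE and BP, and 0.00686% of all tested genes did. The fold changes were the same, but the adjusted p from edgeR was 0.19 for Pdgfra and for Tcf21 and 0.245 for Dcn. At an unadjusted p under 0.05, 2 of the 6 (Pdgfra and Tcf21) were lower in that model, against 24.1% of all tested genes in either direction, and DESeq2 called 0 of the 6 (2.67% of all). CPM of BdE lay below BP without overlap in 3 of 6, where 22.8% of tested genes did so. Among the 6 libraries the number of calls was 0 of 6 when BP 5, BP 6, BP 7 or BdE 7 was left out, 1 (Pdgfra) without BdE 6 and 3 without BdE 5. Calls over all 14570 tested genes moved too, from 3078 in the fit of all 6 libraries to between 743 and 3140 in these fits. The changes in number are therefore not particular to the members. The log2 fold changes stayed below 0 with any 1 of the 6 left out, between -0.60 and -0.43 for Pdgfra, -0.82 and -0.53 for Tcf21 and -0.77 and -0.51 for Dcn. With an offset for the trend on gene length the log2 fold change of Dcn was -0.50 and no longer passed (edgeR adjusted p = 0.0569). Pdgfra, at -0.34 (adjusted p = 0.044), and Tcf21, at -0.71 (adjusted p = 0.0317), did, with 18.1% of tested genes called.

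**Figure D2:**
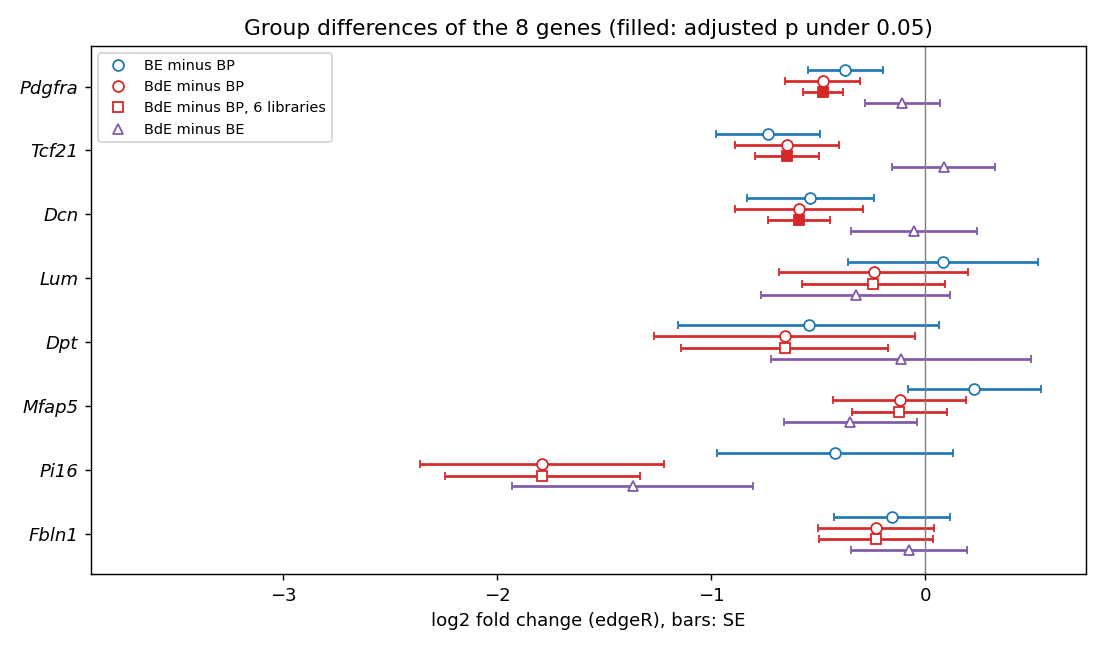
Log2 fold change (horizontal axis) of the 8 genes for each pair of groups from edgeR, with bars for the SE. Filled squares mark the calls at an adjusted p under 0.05, which are those of Pdgfra, Tcf21 and Dcn between BdE and BP in 6 libraries; Mfap5 and Pi16 come from the table without a filter.

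**Figure D3:**
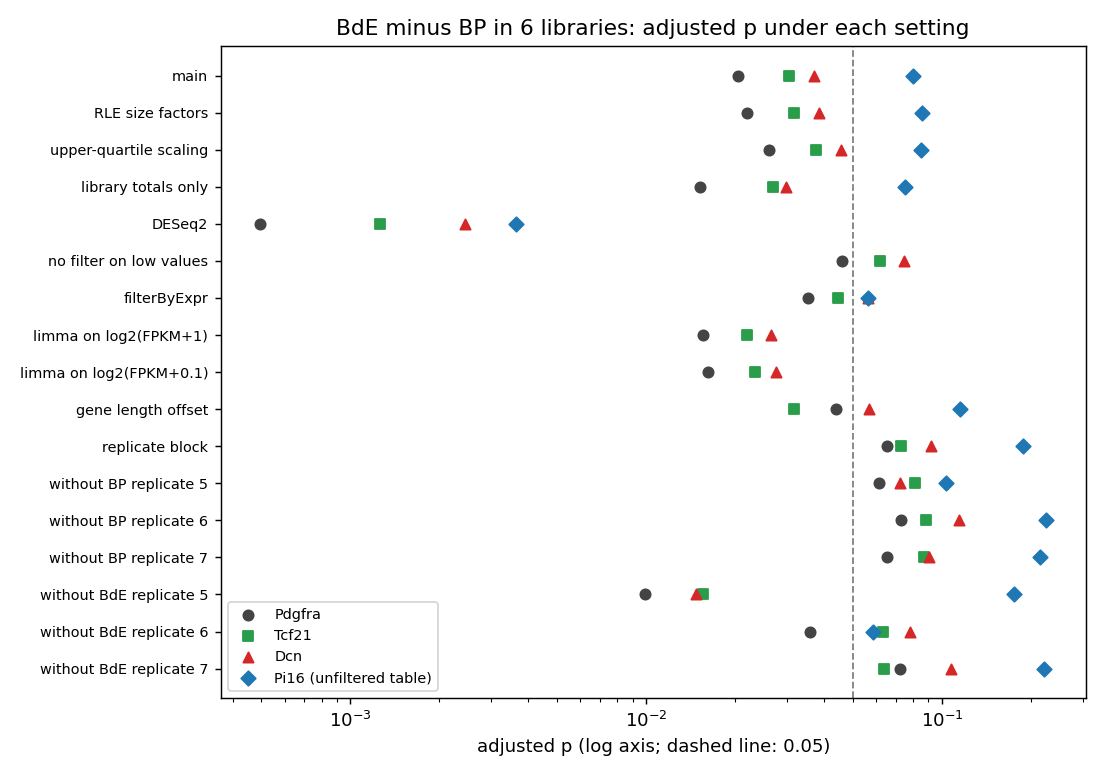
Adjusted p (log axis) of Pdgfra, Tcf21, Dcn and Pi16 between BdE and BP in 6 libraries under the main fit and 16 alternatives, with a dashed line at 0.05. Pdgfra lies left of the line in 11, Tcf21 in 9 and Dcn in 7 of the 16 alternatives; Pi16, in 1 of 13, with DESeq2.

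The second question was the same for exosomes of wild-type donors (BE). With all 9 libraries 0 of 6 genes passed, where 0.0137% of all tested genes did. The largest differences were those of Tcf21 (log2 fold change -0.73, SE 0.244, edgeR adjusted p = 0.38), Dpt (-0.54, SE 0.609, adjusted p = 0.623) and Dcn (-0.54, SE 0.297, adjusted p = 0.392). Pdgfra was at -0.37 (SE 0.174, adjusted p = 0.38), Fbln1 at -0.15 (SE 0.271, adjusted p = 0.759) and Lum at 0.08 (SE 0.442, adjusted p = 0.924). In the unfiltered table (0.0058% called) Mfap5 was at 0.23 (SE 0.310, edgeR adjusted p = 0.793) and Pi16 at -0.42 (SE 0.55, adjusted p = 0.784). At an unadjusted p under 0.05 there was 1 gene, Tcf21, against 12.8% of all tested genes, and DESeq2 called 0 of the 6 (0.419% of all). Tcf21 was also the 1 tested member whose BE libraries all lay below BP, as 7.31% of tested genes did.

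Without BE 6 the same model called 3 of the 6 genes between BE and BP, all lower, where 29.9% of all tested genes were called and 16.2% were lower. The log2 fold changes were then -1.01 for Dcn (SE 0.158, edgeR adjusted p = 0.00512), -1.07 for Tcf21 (SE 0.165, adjusted p = 0.00495) and -0.61 for Pdgfra (SE 0.108, adjusted p = 0.00759). Dpt, at -1.41 (SE 0.537, edgeR adjusted p = 0.0866), did not pass. That model also called Pdgfra, Tcf21 and Dcn between BdE and BP, with 22.4% of tested genes called. BE 6 had been seen to lie with BP before it was left out, a choice that these p-values do not take into account. Both exosome groups were compared with the same BP libraries.

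The comparison of BdE with BE set the sources of exosomes against each other. It called 0 of 6 genes, where 0.00686% of all tested genes passed, with 0 at an unadjusted p under 0.05 (2.33% of all) and 0 with DESeq2 (0.178% of all). The fitted differences were small against their errors for Pdgfra (log2 fold change -0.11, SE 0.174), Tcf21 (0.09, SE 0.243), Dcn (-0.05, SE 0.296) and Fbln1 (-0.08, SE 0.271). They were -0.32 (SE 0.443) for Lum, -0.11 (SE 0.61) for Dpt and -0.35 (SE 0.31) for Mfap5. Pi16 had the largest, -1.37 (SE 0.566), with an edgeR adjusted p of 0.987 in the unfiltered table, where 0.0058% were called. Without BE 6 the signs of Pdgfra (0.13), Dcn (0.42), Lum (0.27), Dpt (0.75) and Fbln1 (0.12) turned positive, and none passed. These data cannot order the exosome groups for any of the 8 genes.

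The place of BE 6 was common to the 8 genes and to many others. It was the highest of the 9 libraries in 4 of the 8 (Lum, Dpt, Mfap5 and Pi16), as in 13.9% of all tested genes. It lay above every BdE library and above BE 7 and BE 8 in 8 of 8, as in 31.8% of tested genes. BE 7 and BE 8 lay below every BP library in 4 of 8 (Pdgfra, Tcf21, Dcn and Dpt), as in 31.5% of tested genes. The shares cover tested genes only, while the counts of the 8 include Mfap5 and Pi16, which were not among them. Such a placing was therefore frequent across all tested genes and is not particular to the 8. Over the 9 libraries the log2 CPM of Dcn had a Pearson r of 0.972 with the mean of the other tested genes of the set. The same r was 0.912 for Pdgfra, 0.865 for Tcf21, 0.808 for Dpt, 0.723 for Pi16, 0.643 for Lum, 0.556 for Mfap5 and 0.283 for Fbln1. These values describe libraries that also share their mitochondrial share and their trend on gene length. Fbln1 followed the rest least, although its counts (884 to 1930) were well above those of Dpt or Pi16.

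The marker sums of macrophages, peritubular myoid cells and endothelium were also lower in BdE, BE 7 and BE 8 than in BP, with BE 6 nearer to BP. The summed FPKM of 6 macrophage markers was 224 to 235 in BP, 234 in BE 6, 103 and 136 in the other BE libraries and 128 to 174 in BdE. For 6 peritubular myoid markers it was 227 to 239 in BP, 209 in BE 6, 120 to 125 in BE 7 and BE 8 and 139 to 186 in BdE. For 6 endothelial markers it was 19.2 to 22.5 in BP, 25.7 in BE 6, 10.6 to 12.7 in BE 7 and BE 8 and 11.7 to 14.5 in BdE. The sum of 6 markers of Sertoli cells, from inside the tubules, ran the other way. It was 1111 to 1185 in BP, 1116 in BE 6, 1606 to 1720 in BE 7 and BE 8 and 1429 to 1627 in BdE. Most of that sum was Aard (580 to 1020 over the 9 libraries) and Cldn11 (344 to 457), while Sox9 spanned only 32.3 to 40.2. The sum therefore does not show a shift of every Sertoli marker. Mesothelium markers summed to 40.7 to 65.3 in BP, 46.6 in BE 6, 33.8 to 35.5 in BE 7 and BE 8 and 37.3 to 41.45 in BdE. Adipocyte markers summed to 5.50 to 13.8 in BP, 8.34 in BE 6, 3.04 to 7.95 in BE 7 and BE 8 and 4.98 to 22.3 in BdE. For both lists BdE overlapped BP. Most of the mesothelium sum was Wt1 (26.8 to 53.7), which Sertoli cells also express, while Upk3b, Msln and Upk1b stayed under an FPKM of 2. The part of these shifts, of the mitochondrial share and of the trend on gene length in the fall of Pdgfra, Tcf21 and Dcn was not tested beyond the length offset given above.

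Genes that work with the 8 were described in 7 lists of 74 genes, of which 62 were tested. Between BdE and BP in 6 libraries 20 of the 62 were lower and 1 was higher past the threshold, where 11.9% of all tested genes were lower and 21.1% were called in either direction. The counts of the single lists below are to be read against the same shares. In the model of all 9 libraries the calls were 0 of 62 for each pair of groups. Over all tested genes that model called 0.00686% for BdE against BP, 0.0137% for BE against BP and 0.00686% for BdE against BE. At an unadjusted p under 0.05 it held 18 lower and 3 higher for BdE against BP (24.1% of all tested genes in either direction). It held 4 and 1 for BE against BP (12.8% of all) and 1 and 0 for BdE against BE (2.33% of all). DESeq2 on 9 libraries called 1 lower for BdE against BP (2.67% of all). It called 0 for BE against BP (0.419% of all) and for BdE against BE (0.178% of all). Leaving out BP 5, BP 6 or BP 7 turned the 20 lower calls into 10, 5 and 7, and leaving out BdE 5, BdE 6 or BdE 7 into 23, 19 and 9. Over all tested genes these fits called 743 to 3140 in either direction, where the fit of all 6 libraries called 3078. Counts of single lists with 1 library left out are to be read against that range. The 20 lower calls became 13 with no filter on low values (4.83% of all called) and 16 with the gene length offset (18.1%).

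Among other small leucine-rich proteoglycans, 2 of 10 tested were lower in BdE than in BP and 0 higher, with a median log2 fold change of -0.66. With 11.9% of all tested genes lower, this count is near the background, and it was 0 without BP 6 or BP 7 and 4 without BdE 5 or BdE 6. Biglycan (Bgn), the closest relative of decorin, went from 287 ± 16.2 to 171 ± 32.2 CPM (SD, n = 3; log2 fold change -0.75, SE 0.139, edgeR adjusted p = 0.0176). Ecm2 went from 31.3 ± 3.75 to 14.3 ± 3.56 CPM (-1.13, SE 0.205, edgeR adjusted p = 0.0165). Of the elastic fibre and microfibril genes 6 of 14 were lower and 0 higher (median -0.65), and 2 passed without BP 5, BP 6, BP 7 or BdE 7. Fibrillin-1 (Fbn1), the core of microfibrils, went from 28.3 ± 1.92 to 14.2 ± 1.33 CPM (-0.99, SE 0.110, edgeR adjusted p = 0.00684). Emilin1, which sits at the surface of elastic fibres, was at -0.86 (SE 0.121, edgeR adjusted p = 0.00985). The fibulin relatives Efemp1 (-0.63, edgeR adjusted p = 0.0426) and Efemp2 (-0.40, edgeR adjusted p = 0.0425) were lower too. With the length offset Efemp2 was at -0.37 and did not pass (edgeR adjusted p = 0.0533).

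In the growth factor lists the genes called were Pdgfrl, Tgfbr2 and Tgfbr3. Of 6 PDGF genes 1 was lower, the receptor-like gene Pdgfrl, which went from 7.79 ± 0.180 to 3.68 ± 0.803 CPM (SD, n = 3; log2 fold change -1.08, SE 0.191, edgeR adjusted p = 0.0155). The ligand gene Pdgfc (-0.28, SE 0.219, edgeR adjusted p = 0.391) and the second receptor gene Pdgfrb (-0.27, SE 0.103, edgeR adjusted p = 0.116) did not pass, and the median was -0.27. The call of Pdgfrl was lost without BP 5, BP 6, BP 7 or BdE 7. Of 5 TGF-beta genes 2 were lower and 0 higher (median -0.14), also with any 1 of the 6 libraries left out. In the same fit 11.9% of all tested genes were lower. Tgfbr2, the signalling receptor that binds the ligand first, went from 40.8 ± 1.26 to 17.4 ± 2.77 CPM (-1.23, SE 0.132, edgeR adjusted p = 0.00661). Tgfbr3, the co-receptor betaglycan, went from 135 ± 17.5 to 65.1 ± 5.56 CPM (-1.05, SE 0.116, edgeR adjusted p = 0.00684).

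Of 11 stromal progenitor markers 3 were lower and 0 higher (median log2 fold change -0.18), against 11.9% of all tested genes lower. With 1 library left out the list never held 3 calls: there were 2 without BdE 5 or BdE 6, 1 without BP 5 and 0 without BP 6, BP 7 or BdE 7. The 3 genes were the chemokine scavenger Ackr3 (-0.82, SE 0.148, edgeR adjusted p = 0.0165), Cd34 (-0.56, SE 0.124, edgeR adjusted p = 0.0277) and Nr2f2, a nuclear receptor of interstitial mesenchyme (-0.47, SE 0.112, edgeR adjusted p = 0.0327). With the length offset Nr2f2 was at -0.34 and did not pass (edgeR adjusted p = 0.091). Of 8 partners and inhibitors of Tcf21 the E protein gene Tcf4 was lower (-1.03, SE 0.203, edgeR adjusted p = 0.0204). Id4, an inhibitor of such factors that is best known from mouse spermatogonia, was higher (0.48, SE 0.102, edgeR adjusted p = 0.0243), and the median was 0.05. Leaving out BdE 6 gave 2 calls in this list, BP 7 or BdE 5 gave 1, and BP 5, BP 6 or BdE 7 gave 0. Of 8 matrix proteases and inhibitors 5 were lower and 0 higher (median -0.54), with 3 calls without BP 5 or BdE 7, 1 without BP 6, 2 without BP 7, 6 without BdE 5 and 4 without BdE 6. The inhibitor gene Timp2, the most abundant of them, went from 1495 ± 64.1 to 1010.0 ± 91.2 CPM (-0.57, SE 0.0882, edgeR adjusted p = 0.0121). Timp3 was at -0.52 (SE 0.0885, edgeR adjusted p = 0.0146). The aggrecan-cleaving protease gene Adamts1 was at -1.12 (SE 0.173, edgeR adjusted p = 0.0118) and Adamts2, which trims procollagen, at -0.56 (SE 0.103, edgeR adjusted p = 0.0173).

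**Figure D4:**
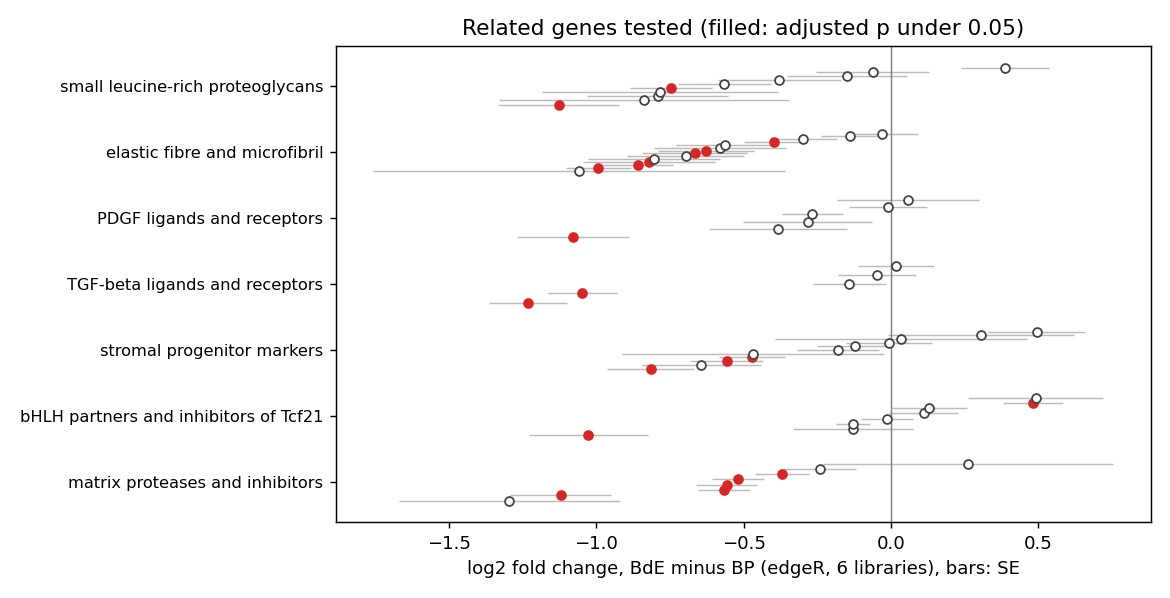
Log2 fold change from BP to BdE (horizontal axis, edgeR, 6 libraries) of the 62 tested genes in 7 related lists, with bars for the SE and filled points for an adjusted p under 0.05. The 20 filled points left of 0 include Tgfbr2, Tgfbr3, Fbn1 and Timp2; the 1 to the right is Id4.

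The genes whose level over the 9 libraries was most like the mean of the 6 tested genes were sought among 6989 genes with a mean FPKM of at least 5. They were Kctd20 (Pearson r 0.982), Coasy, which encodes coenzyme A synthase (0.981), Cdc37, a co-chaperone of Hsp90 (0.98), Xpo6, a nuclear exporter of actin (0.978), and Mcam, an adhesion molecule of vessel walls (0.976). Kctd20 lay at 76.7 to 104 CPM in BP, 92.3 in BE 6, 40.6 in BE 7, 35.2 in BE 8 and 43.7 to 64.2 in BdE. Mcam lay at 31.1 to 37.3 CPM in BP, 35.0 in BE 6, 20.5 in BE 7, 19.2 in BE 8 and 21.5 to 26.5 in BdE. Both set BP and BE 6 above the other 5 libraries, as Dcn did. This placing follows from their choice, since the mean to which they were matched was itself highest in BP and BE 6.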

How the data were processed

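RNA-seq of 9 testis libraries was deposited as 1 table. Per the file headers, the authors gave a whole-number count and an FPKM value per gene and library, with FPKM 0.0001 in place of 0. Each library's FPKM followed its counts at a fixed ratio per gene (SD 0.00182 in log2, 13478 genes). The submitters' processing notes name Bowtie 0.12.2 and the build mm8, without roles. The coordinates are those of GRCm38, since the start and end of 51957 genes (93.8%) equal those in GENCODE M21, though not for Mfap5. The counting program and whether it used strand are not stated in any source used here.

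Counts were tested with edgeR 4.0.16 quasi-likelihood (R 4.3.3) after TMM scaling, two-sided, with Benjamini-Hochberg adjustment over all 14570 genes whose FPKM reached 1 in 3 or more libraries. These held at least 98.6% of each library's counts. A model of all 9 libraries was the main fit, and a model of the 6 BP and BdE libraries was given beside it. The model of 6 libraries was added because BE 6 lay apart from the other BE libraries in earlier results of these data. The spread of BE enters the model of all 9. The biological coefficient of variation was 0.288 and 0.251. CPM values are TMM-scaled counts. Mfap5 and Pi16, under the filter, come from the same fits on 34502 genes. DESeq2 1.42.0 and limma 3.58.1 were alternatives, and the fits were tested on simulated data.

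The 8 genes and all lists were chosen with earlier results of these data known. Named genes are the 8, up to 4 called genes per list in order of p (or, where fewer than 2 were called, the 2 with the highest FPKM), the 5 most similar genes, and neighbours of Dcn and Lum with at least 100 counts in every library. Withheld annotation terms are not reported here.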

Additional observations from a re-analysis of the deposited data

How the results depend on the processing

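Of the log2 fold changes of the 8 genes over the alternatives, 146 of 154 (BE against BP), 147 of 154 (BdE against BP), 139 of 154 (BdE against BE) and 99 of 122 (BdE against BP in 6 libraries) kept both direction and side of the threshold. Reversals between BE and BP were Lum with limma (-0.0159 and -0.0722 with pseudocounts of 1 and 0.1) and with 1 library left out (-0.512 to 0.34, below 0 without BE 6 and, at -0.148, without BP 5), and Mfap5 (-0.0796 without BE 6 to 0.478). Mfap5 between BdE and BP ran from -0.229 (-0.245 in 6 libraries) to 0.0104 without BP 7. Between BdE and BE with 1 library left out, the range was -0.242 to 0.127 for Pdgfra, -0.079 to 0.421 for Tcf21, -0.255 to 0.421 for Dcn, -0.593 to 0.271 for Lum, -0.506 to 0.754 for Dpt and -0.25 to 0.142 for Fbln1. Dcn turned to 0.0261 and 0.0286 with limma there. The cause of these turns was not tested. Members called with 1 library left out ranged from 0 to 3 in BE against BP, in BdE against BP, in the F test of all groups (0 in the main fit, where edgeR called 0.0137% and DESeq2 1.33% of genes; Tcf21 alone had an unadjusted p under 0.05, with 13.3% of genes) and in the 6 libraries, where the table without a filter called 1. Over all genes, BE against BP called 2, or 1 with library totals, 61 with DESeq2, 1 and 1 with limma, 0 with its 6 libraries and 0 to 4351 with 1 left out. BdE against BP called 1, or 2 with upper-quartile scaling, library totals, filterByExpr, limma and the length offset, 3 without a filter, 389 with DESeq2, 3078 (members 3) in its 6 libraries and 0 to 3257 with 1 left out. BdE against BE called 1, or 26 with DESeq2, 2 without a filter, 2 with filterByExpr, 0 with its 6 libraries and 0 to 6 with 1 left out. The 6 libraries of BdE and BP called 3078, or 1665 without a filter and 743 to 3140 with 1 left out. The labels do not say whether replicate numbers pair the libraries. Residual correlations were -0.117 to 0.228 in 7 pairs of the same number and -0.173 to 0.223 in 20 of different numbers. These ranges overlap, and so few pairs cannot exclude a pairing. With a replicate block, calls fell to 0 genes and 0 members in every comparison, and Tcf21 between BdE and BE was -0.074. Scaling moved the median of all genes by at most 0.065 (log2). Depth limits Dpt, Pi16, Lum and Mfap5, with 25 to 356 counts per library.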

Other observations

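Crisp1, an epididymal gene chosen after its values were seen, had 38837 counts (FPKM 420) in BP 5 alone, 197 in BdE 7 and 0 in the other 7 libraries. Lcn5 and Lcn8, also epididymal, were at 0 in all 9. In CPM, BP 5 lay between BP 6 and BP 7 for Tcf21, Dpt and Fbln1, and below both for Pdgfra, Dcn, Lum, Mfap5 and Pi16. On the FPKM scale BP 5 lay above both for Tcf21 (17.57) and between them for Pdgfra (21.58).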
